A study of Mus musculus with 14 samples.

Results

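Iron handling was examined through 10 genes for iron uptake, storage, export and sensing, out of 19324 genes named in the annotation of the array. The genes were chosen by function, with earlier results of these data known. The group was picked from these data because Slc11a2 was lower at 12 months than at 2 months. The values that picked it are therefore described without a test, namely every value of Slc11a2 and every difference between middle-aged and young cells. RNA came from mouse skeletal muscle precursors, the satellite cell fraction that repairs muscle fibres, of the C57BL/6 strain. The cells were sorted as negative for CD45, Ter119 and Sca-1 and positive for CD29 and Cxcr4. The arrays were 5 from young mice (2 months), 4 from middle-aged mice (12 months) and 5 from aged mice (24 months), and no label gives any animal a treatment or a transgene. The labels do not say that each array was a separate animal or whether animals were pooled, so p-values measure the spread between these samples, which may be partly technical.

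Cells take up iron as transferrin bound to the transferrin receptor, reduce it inside endosomes and pass it through a metal transporter into the cytosol. Iron that is not used is stored inside shells of ferritin, made of heavy and light chains, or leaves through ferroportin, the only known iron exporter of mammals. A pair of iron regulatory proteins senses the cytosolic iron pool. When iron is scarce they bind hairpins in messenger RNAs, which protects the transferrin receptor message and blocks translation of ferritin, so that these messages are controlled largely after transcription.

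The 10 genes had 29 annotated probe sets, the array's unit of measurement. Of these, 19 passed the filter on dim signal (above the 40th percentile of the array on at least 4 of 14 arrays). Another 4 were below it, 3 were control probe sets for Tfrc, and 3 were annotated to Ftl1 together with other genes. The 19 were 4 of Slc11a2 and 15 of 8 other genes. Values are log2 intensities. Levels of different probe sets are not comparable, so only the same probe set is compared between ages.

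The start regions of the 2 members that passed the test below, Fth1 and Aco1, are shown with those of their partners, the ferritin light chain Ftl1 and the other iron regulatory protein, Ireb2. Each is the 250 bases before the annotated start, 5′ to 3′ along the gene, from RefSeq (GRCm38.p6). Capitals mark a GC box (GGGCGG, either strand) or a CCAAT box (CCAAT, either strand). Fth1 has 2 annotated starts. The downstream one is shown, and the window of the other had a G and C content of 34.8%, 1 TATAAA and neither box.
Fth1, chr19:9982396-9982645, plus strand: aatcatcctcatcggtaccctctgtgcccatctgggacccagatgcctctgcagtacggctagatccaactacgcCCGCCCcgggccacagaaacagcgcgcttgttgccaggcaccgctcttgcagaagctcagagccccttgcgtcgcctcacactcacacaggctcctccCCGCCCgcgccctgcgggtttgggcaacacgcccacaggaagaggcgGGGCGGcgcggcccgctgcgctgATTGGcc
Ftl1, chr7:45459887-45460136, minus strand: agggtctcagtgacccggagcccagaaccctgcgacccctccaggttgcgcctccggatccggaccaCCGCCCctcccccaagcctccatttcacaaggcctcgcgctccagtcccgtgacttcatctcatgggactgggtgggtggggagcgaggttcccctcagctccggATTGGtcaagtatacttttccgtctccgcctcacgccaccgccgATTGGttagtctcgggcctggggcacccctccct
Aco1, chr4:40143015-40143264, plus strand: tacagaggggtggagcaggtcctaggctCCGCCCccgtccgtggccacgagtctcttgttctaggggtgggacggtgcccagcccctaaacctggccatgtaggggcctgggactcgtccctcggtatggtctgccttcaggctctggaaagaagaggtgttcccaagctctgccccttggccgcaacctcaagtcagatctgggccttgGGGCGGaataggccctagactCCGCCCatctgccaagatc
Ireb2, chr9:54863505-54863754, plus strand: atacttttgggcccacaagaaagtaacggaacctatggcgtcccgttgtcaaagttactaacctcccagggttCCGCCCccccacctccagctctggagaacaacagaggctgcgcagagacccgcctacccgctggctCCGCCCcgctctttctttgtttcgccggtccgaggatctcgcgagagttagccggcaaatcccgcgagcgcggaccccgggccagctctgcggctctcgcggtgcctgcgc

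The Fth1 and Aco1 windows held 3 GC boxes each, Ireb2 held 2 and Ftl1 held 1. A GC box was found in 32.7% of all 32851 RefSeq start windows of the same length. The 2 CCAAT boxes of Ftl1 and the 1 of Fth1 compare with 33.8% of windows with at least 1, and Aco1 and Ireb2 had none. In none of the 4 windows were the letters TATAAA (12.4% of windows), the core of the antioxidant response element TGACNNNGC (10.2%) or the hypoxia response core ACGTG (16.6%) found. The G and C content was 66.8% for Fth1, 65.2% for Ftl1, 62.8% for Aco1 and 63.6% for Ireb2, against a median of 52.4% over all windows. RefSeq windows were matched for 6 of the 10 genes, and Slc11a2, Slc40a1, Slc39a14 and Hmox1 had no entry.

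The arrays also differed in ways other than age. The arrays fell into 2 sets that cross the ages, defined from the values by the main axis of variation left after age. Set 1 held young arrays 1, 3 and 4, middle-aged 2, 3 and 4 and aged 1 and 2, and set 2 the other 6. RNA quality, taken as how far the 3′ control probe sets for Gapdh and Actb lay above the 5′ ones on the log2 scale, was 4.30 ± 0.54, 3.85 ± 0.25 and 3.54 ± 0.51 at the 3 ages. Results below are given within the sets, or with RNA quality as a covariate, where that ends a call or moves a value much.

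Slc11a2 (Entrez 18174), the divalent metal transporter that carries iron out of endosomes, was lower at 12 months on some of its probe sets and not on others. Probe set 1426441_at read 8.16, 7.63, 8.43, 8.41 and 7.97 on the 5 young arrays. It read 6.06, 7.02, 6.28 and 6.63 on the 4 middle-aged arrays and 7.17, 7.30, 6.78, 7.07 and 6.82 on the 5 aged arrays. Every middle-aged and every aged array lay below every young one, while middle-aged and aged arrays overlapped. The mean went from 8.12 ± 0.33 (SD, n = 5) to 6.50 ± 0.42 (n = 4), a difference of -1.62 ± 0.21 (SE) or 3.08-fold, and was 7.03 ± 0.23 (n = 5) in aged cells, 2.13-fold below young. This is the difference by which the group was picked.

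The other probe sets of Slc11a2 moved less. Probe set 1452078_a_at, which the annotation ties to the same sequence accession, had means of 7.36 ± 0.30, 6.70 ± 0.55 and 7.04 ± 0.46 at 2, 12 and 24 months, and its groups overlapped. Probe set 1441709_at had 5.40 ± 0.17, 4.90 ± 0.22 and 5.28 ± 0.60, with middle-aged arrays all below young ones. Probe set 1417584_at had 6.37 ± 0.23, 6.31 ± 0.39 and 6.33 ± 0.44. The differences of middle-aged from young cells were thus -1.62, -0.66, -0.49 and -0.06 on the log2 scale over the 4 probe sets. Aged minus young was -1.09, -0.33, -0.12 and -0.04 in the same order. With RNA quality as a covariate, aged minus young was -0.81, -0.02, 0.23 and 0.11. The Slc11a2 gene makes messages with alternative 3′ ends, of which some carry an iron-responsive hairpin, and the annotation used here does not say which end each probe set reads.

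**Figure D1:**
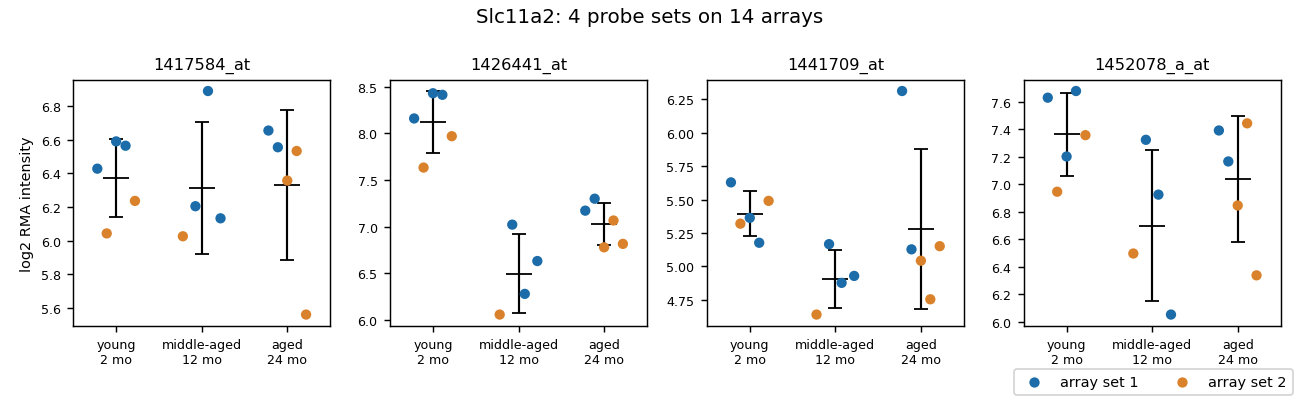
Log2 RMA intensity of the 4 Slc11a2 probe sets (vertical axes, separate scales) on 14 arrays at 2, 12 and 24 months. Points are arrays, coloured by array set, and bars are the mean and SD; 1426441_at falls from a mean of 8.12 to 6.50 between 2 and 12 months, while 1417584_at stays between means of 6.31 and 6.37.

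Aged against young cells is the comparison that did not pick the group. Of the 15 tested probe sets, 1 rose (an Fth1 probe set) and 1 fell (an Aco1 probe set), whereas over all 23887 probe sets 3.10% passed, 2.21% upward and 0.888% downward (limma, adjusted p under 0.05). The median log2 change of the 15 was -0.03, beside -0.05 over all probe sets. The same pair were the 1 probe set higher on every aged array than on any young one (2.82% of all) and the 1 lower on every aged array (1.81% of all). A count of 1 among 15 says little beside those shares. In cells sorted in bulk, fewer cells of a type and less RNA per cell cannot be told apart, and this holds for every change below.

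Among the uptake genes, Tfrc (Entrez 22042), the transferrin receptor, had a log2 change of 0.03 ± 0.22 in aged against young cells on its brightest probe set, 1452661_at (adjusted p = 0.972). That probe set read 8.79, 8.99, 8.94, 8.74 and 9.27 on young, 9.22, 8.39, 8.11 and 8.76 on middle-aged and 8.50, 8.92, 8.99, 9.54 and 8.92 on aged arrays, so the ages overlapped. Its change was -0.38 when RNA quality was a covariate. The dimmer 1422966_a_at changed by -0.11 ± 0.17 (adjusted p = 0.825). Probe set 1422967_a_at lay above the 40th percentile on only 3 arrays, and of the 3 control probe sets for Tfrc, the 3′ one had means of 4.64 ± 0.21, 4.36 ± 0.08 and 4.49 ± 0.14 at the 3 ages.

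Slc39a14 (Entrez 213053), or ZIP14, a transporter for zinc and for iron not bound to transferrin, had 4 probe sets, each highest in middle-aged cells. The brightest, 1427035_at, read 11.34, 11.86, 11.79, 11.84 and 11.91 on young arrays. It read 12.14, 12.08, 12.11 and 11.88 on middle-aged and 11.47, 11.40, 11.35, 11.98 and 11.58 on aged arrays. Middle-aged arrays were mostly above the rest, with overlap on 1 young and 1 aged array. Aged minus middle-aged was -0.49 ± 0.16 (adjusted p = 0.467) for this probe set and -0.56 ± 0.24 (adjusted p = 0.537), -0.34 ± 0.24 (adjusted p = 0.697) and -0.63 ± 0.41 (adjusted p = 0.669) for 1425649_at, 1438490_at and 1457770_at. None passed, and aged minus young lay between -0.26 and -0.03 for the 4 probe sets. Middle-aged minus young, which is not tested, was 0.30, 0.52, 0.24 and 0.37 in the same order.

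Steap3 (Entrez 68428) reduces the iron that transferrin brings into endosomes. Its 1 measured probe set read 6.15, 5.75, 5.56, 5.38 and 5.43 on young arrays, 5.61, 5.78, 6.01 and 5.66 on middle-aged and 6.30, 6.35, 6.08, 5.79 and 5.77 on aged ones. The change of 0.40 ± 0.17 in aged against young cells did not pass (adjusted p = 0.282), and young array 1 lay within the aged values. The remaining 2 probe sets of Steap3 were below the filter.

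For storage, 1 of 2 Fth1 probe sets rose in aged against young cells. Fth1 (Entrez 14319), the ferritin heavy chain that oxidises iron for storage, read 11.94, 12.51, 12.34, 12.34 and 12.42 on young arrays with probe set 1448771_a_at. It read 12.93, 12.59, 12.85 and 12.78 on middle-aged and 12.83, 12.64, 12.86, 13.21 and 12.81 on aged arrays. All 9 older arrays lay above all 5 young ones, and the middle-aged and aged values overlapped. The mean rose from 12.31 ± 0.22 (SD, n = 5) to 12.87 ± 0.21 (n = 5), a log2 change of 0.56 ± 0.15 or 1.48-fold (adjusted p = 0.0490). The call is marginal: it was lost on removal of any single young array, or of any aged array but the second (adjusted p = 0.0501 to 0.131). With the RNA quality covariate the change was 0.34 ± 0.16 (adjusted p = 0.295), and within array sets 1 and 2 it was 0.53 ± 0.19 and 0.50 ± 0.19 (adjusted p = 0.184 and 0.276), none of which passed.

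The second Fth1 probe set, 1427021_s_at, read 10.81, 11.09, 11.66, 10.83 and 11.03 on young arrays, 11.89, 11.24, 12.00 and 11.93 on middle-aged and 11.58, 11.62, 11.82, 12.54 and 11.64 on aged ones. Young array 3 lay among the older values. Its change of 0.76 ± 0.22 or 1.69-fold did not pass (adjusted p = 0.0852), and it was 0.32 ± 0.22 with the RNA quality covariate. Ferritin genes have many near-identical processed copies, which probe sets of shared sequence may not tell apart.

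No probe set was annotated to the ferritin light chain Ftl1 alone, so none was tested. Of the 3 that list Ftl1 beside its copy Ftl1-ps2, 1418364_a_at had means of 10.50 ± 0.28, 10.78 ± 0.20 and 11.15 ± 0.58 at 2, 12 and 24 months, 1422302_s_at had 9.51 ± 0.35, 9.62 ± 0.32 and 10.12 ± 0.78, and 1422301_at had 7.54 ± 0.13, 7.83 ± 0.23 and 7.64 ± 0.21. Aged array 4, at 12.13 and 11.48 on the first and second of these, was the highest array for both, as it was for both Fth1 probe sets.

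For export, Slc40a1 (Entrez 53945), which encodes ferroportin, read 6.98, 7.28, 6.84, 6.68 and 7.45 on young arrays with probe set 1417061_at. It read 7.23, 6.90, 7.03 and 7.30 on middle-aged and 6.25, 6.51, 7.31, 8.28 and 8.12 on aged arrays. The aged arrays held both the lowest and the highest values of the series, with an SD of 0.92 against 0.32 in young and 0.18 in middle-aged cells. The change in aged against young cells was 0.25 ± 0.33 (adjusted p = 0.795), and it was -0.46 within array set 1. Probe set 1448566_at was above the 40th percentile on only 4 arrays, with aged array 4 at 5.91, and changed by 0.29 ± 0.36 (adjusted p = 0.773).

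Of the iron regulatory proteins, Aco1 fell on 1 of its 2 measured probe sets in aged against young cells, and Ireb2 did not pass. Aco1 (Entrez 11428) encodes IRP1, which is a cytosolic aconitase when it holds an iron-sulphur cluster and binds RNA when it does not. Probe set 1423644_at read 6.91, 6.81, 6.59, 6.57 and 7.03 on young arrays. It read 5.90, 6.21, 5.78 and 6.21 on middle-aged and 5.75, 6.27, 5.62, 6.30 and 5.61 on aged arrays. All older arrays lay below all young ones, and middle-aged and aged arrays overlapped. The mean fell from 6.78 ± 0.20 (SD, n = 5) to 5.91 ± 0.35 (n = 5), a log2 change of -0.87 ± 0.17 or 1.82-fold lower (adjusted p = 0.0123). The call held when each of the 10 young and aged arrays was left out in turn (adjusted p at most 0.0387). Within array set 1 the change was -0.68 ± 0.26 (adjusted p = 0.201) and within set 2 -1.07 ± 0.26 (adjusted p = 0.0696), so neither set alone passed.

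The brighter Aco1 probe set, 1456728_x_at, had young values of 7.99, 8.87, 7.78, 7.36 and 8.87. Middle-aged arrays read 7.64, 7.76, 7.60 and 7.99 and aged arrays 7.65, 7.36, 7.65, 7.68 and 7.59. Its young arrays were spread over more than 1 log2 unit (SD 0.67, against 0.13 in aged cells), and young arrays 2 and 5 were the highest. Its change of -0.59 ± 0.25 did not pass (adjusted p = 0.266), nor did that of -0.96 ± 0.28 with the RNA quality covariate (adjusted p = 0.0832). Within array sets 1 and 2 it was -0.20 (adjusted p = 0.693) and -1.23 (adjusted p = 0.0169). Probe set 1447080_at of the same gene was not above the 40th percentile on any array.

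Ireb2 (Entrez 64602) encodes IRP2, which is degraded when iron is plentiful. Its 1 probe set read 6.07, 6.49, 6.43, 6.47 and 7.21 on young arrays, 6.66, 5.57, 4.97 and 5.04 on middle-aged and 5.40, 5.05, 5.79, 6.91 and 5.73 on aged ones. All but 1 of the middle-aged and 1 of the aged arrays lay below every young array. The change of -0.76 ± 0.36 did not pass (adjusted p = 0.333), nor did that of -1.35 ± 0.39 with the RNA quality covariate (adjusted p = 0.0835).

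Hmox1 (Entrez 15368), the inducible haem oxygenase that frees iron from haem, read 5.03, 5.14, 5.48, 4.90 and 4.74 on young arrays, 4.74, 5.48, 5.20 and 5.45 on middle-aged and 6.43, 5.33, 5.11, 5.89 and 5.36 on aged ones. Aged arrays 1 and 4 were above every other array, and the remaining aged values overlapped the younger ones. The change of 0.57 ± 0.24 in aged against young cells did not pass (adjusted p = 0.259).

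**Figure D2:**
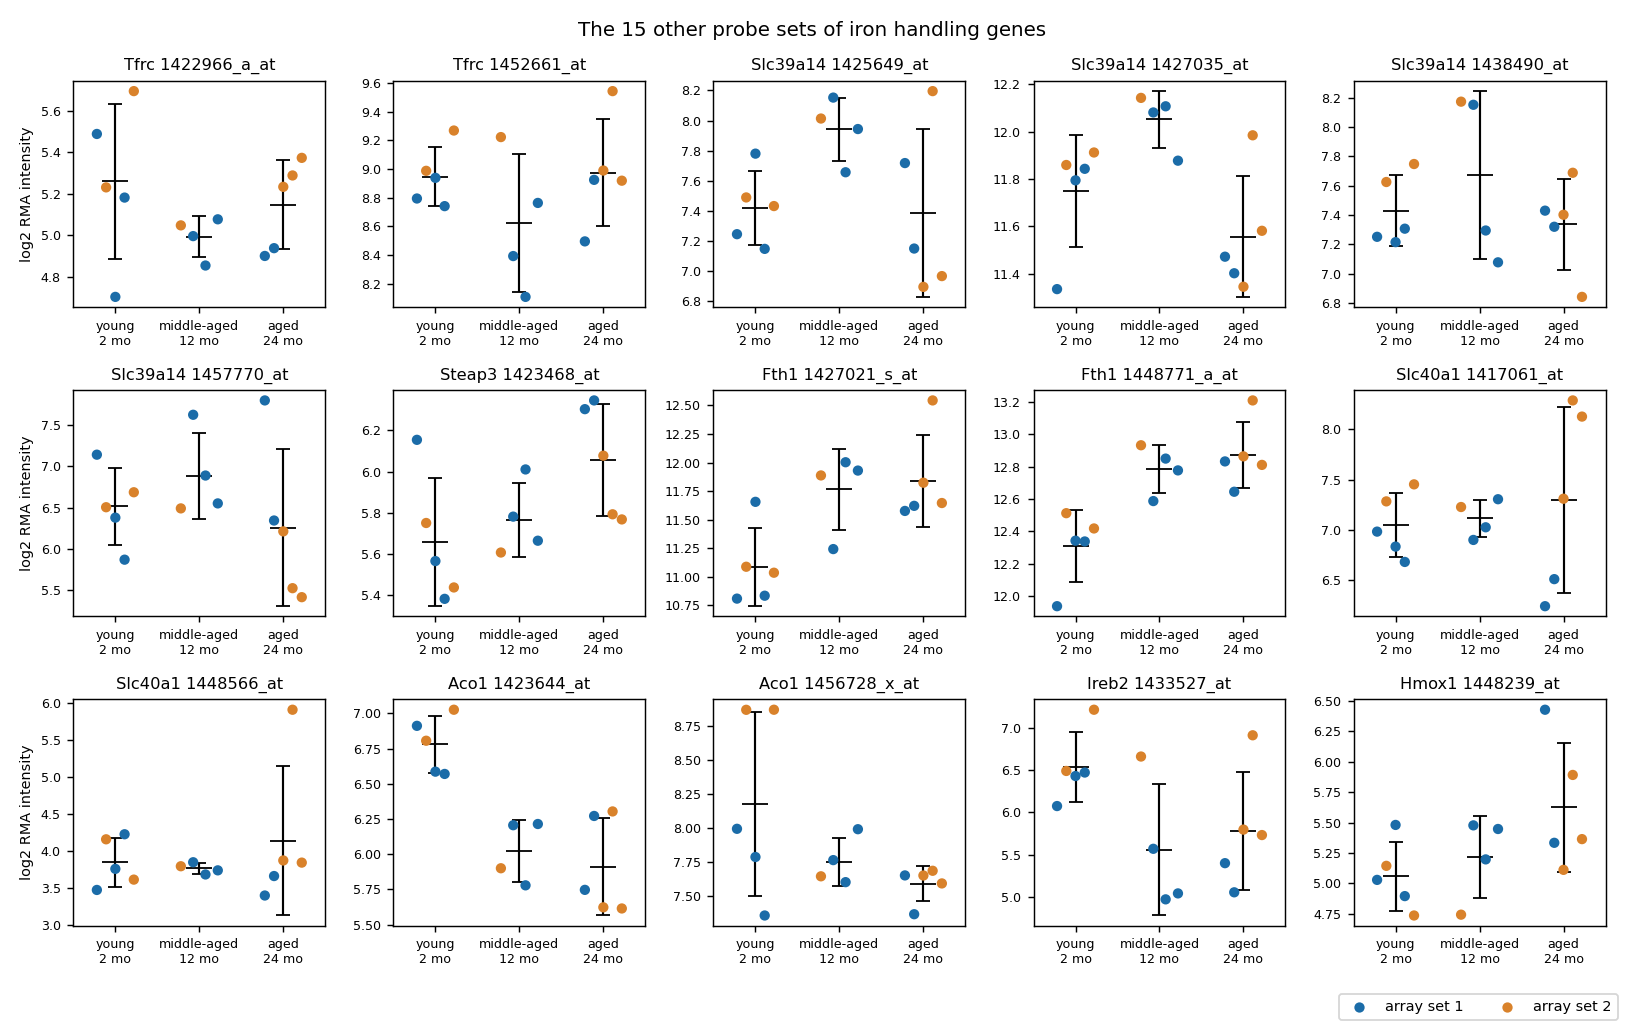
Log2 RMA intensity (vertical axes, separate scales) of the 15 tested probe sets of Tfrc, Slc39a14, Steap3, Fth1, Slc40a1, Aco1, Ireb2 and Hmox1 on 14 arrays at 2, 12 and 24 months. Points are arrays, coloured by array set, and bars are the mean and SD; older arrays lie above all young ones for Fth1 1448771_a_at and below all young ones for Aco1 1423644_at.

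Aged against middle-aged cells asks about the later part of life. Of the 15 probe sets, 0 passed in limma, and 2 had an unadjusted p under 0.05. Over all 23887 probe sets the share called was 0%, and 2087 had an unadjusted p under 0.05. The changes of the 15 ran from -0.63 to 0.41 with a median of 0.09. For Fth1 1448771_a_at the values of the 3 comparisons were 0.56 (aged minus young), 0.48 (middle-aged minus young) and 0.09 (aged minus middle-aged), and for Aco1 1423644_at they were -0.87, -0.76 and -0.11. These comparisons share arrays. In middle-aged against young cells, the contrast that picked the group and is described only, the changes of the 15 ran from -0.98 to 0.68 with a median of 0.11. In 1 of them every middle-aged array lay above every young one (3.24% of all probe sets), and in 1 every middle-aged array lay below (4.46% of all).

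The other genes of iron metabolism were read from 8 lists of 82 symbols, of which 71 were measured, each by its brightest probe set. In aged against young cells 6 of the 71 rose and 1 fell, while of the brightest probe sets of all 13579 measured genes 2.76% rose and 0.987% fell. The lists were chosen with earlier results of these data known. These counts are therefore a description and cannot test whether iron genes changed more than others. The median change of the 71 was 0.04, beside -0.05 over all 23887 probe sets, among which a gene can have several. In aged against middle-aged cells 0 of 71 passed in limma.

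The uptake and reduction list gave 3 rises among 13 measured genes and a median of 0.04. Steap4, a metalloreductase of the same family as Steap3, rose 2.50-fold (1.32 ± 0.24, adjusted p = 0.00604). Young arrays read 9.69, 9.44, 9.61, 10.40 and 9.22 and aged arrays 10.83, 11.14, 11.02, 10.68 and 11.27. Cybrd1, a ferric reductase of the cell surface, rose 2.48-fold from 4.52 ± 0.38 to 5.84 ± 0.42 (1.31 ± 0.28, adjusted p = 0.0153). With the RNA quality covariate, Cybrd1 had a change of 1.04 ± 0.34 and was not called (adjusted p = 0.122), nor was it within array set 1 (1.38, adjusted p = 0.0919) or set 2 (1.08, adjusted p = 0.236).

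Lcn2, lipocalin 2, a secreted protein that binds iron through siderophores, rose 7.16-fold from 5.40 ± 0.97 to 8.24 ± 1.07 (2.84 ± 0.56, adjusted p = 0.0104). Its young arrays read 5.68, 4.19, 6.29, 6.25 and 4.59 and its aged arrays 9.30, 9.23, 8.39, 7.06 and 7.21. With the RNA quality covariate the change of Lcn2 was 3.75 ± 0.61 and was still called (limma, adjusted p = 0.0078). All aged arrays lay above all young arrays for each of these 3 genes, as for 2.82% of all probe sets. Among the other iron genes this was read only for those already called, so it adds no support to the calls. The middle-aged means of 10.90 (Steap4), 5.68 (Cybrd1) and 7.90 (Lcn2) lay nearer the aged than the young ones.

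The export and hepcidin list gave 1 rise and 1 fall among 8 measured genes (median -0.06). Cp, ceruloplasmin, the copper oxidase that loads exported iron onto transferrin, fell 1.73-fold from 11.02 ± 0.32 to 10.23 ± 0.33 (-0.79 ± 0.19, adjusted p = 0.0365). Leaving out any of the young arrays 1 to 4 or the aged arrays 2 to 5 ended that call (adjusted p = 0.0505 to 0.106). It was not called within array set 1 (-0.70, adjusted p = 0.136) or set 2 (-0.69, adjusted p = 0.184), and with the RNA quality covariate the change was -0.50 ± 0.22 (adjusted p = 0.249). Hjv, hemojuvelin, a co-receptor for bone morphogenetic proteins in hepcidin control that muscle also makes, rose 2.20-fold from 4.45 ± 0.49 to 5.59 ± 0.49 (1.14 ± 0.28, adjusted p = 0.0367). For Hjv the call was lost on removal of any young array but the third or of any aged array but the first (adjusted p = 0.0505 to 0.0894), and with the covariate (1.00 ± 0.36, adjusted p = 0.156). Within array set 1 its change was 0.60 and did not pass (adjusted p = 0.479), whereas it was 1.73 within set 2 (adjusted p = 0.0463). The aged arrays of both genes overlapped the young ones.

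Of 18 measured genes of mitochondrial iron and iron-sulphur clusters, 2 rose (median -0.02). Iscu, the scaffold on which clusters are built, went from 8.26 ± 0.12 to 8.93 ± 0.28 (0.67 ± 0.14, adjusted p = 0.0166) and was not called without young array 3 (0.0505) or with the covariate (0.53 ± 0.17, adjusted p = 0.123). Within array sets 1 and 2 its change was 0.44 and 0.80 (adjusted p = 0.232 and 0.0525). Cisd1, the cluster protein mitoNEET of the outer mitochondrial membrane, went from 8.34 ± 0.28 to 9.06 ± 0.27 (0.72 ± 0.18, adjusted p = 0.0351). Removal of any young array but the fourth, or of aged array 1 or 5, ended its call (adjusted p = 0.0589 to 0.0836). Within array sets 1 and 2 the change was 0.48 and 1.02 (adjusted p = 0.358 and 0.0687). For both genes each aged array was above each young one (2.82% of all probe sets), again read only for called genes.

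The remaining lists had no call in limma. Haem synthesis had 8 measured genes and a median of -0.06, with Alad, the second enzyme, at 0.41 ± 0.24 (adjusted p = 0.457). Alas2, the erythroid first enzyme, was at 0.58 ± 0.18, which is a description only. It was above the 40th percentile on only 6 arrays. Its young values of 3.40 to 3.75 lay below that level on every array (3.79 to 3.96), so it passed the filter through older arrays alone. Haem breakdown and transport had 10 measured genes and a median of 0.22, with the biliverdin reductase Blvrb at 0.57 ± 0.16 (adjusted p = 0.0701) and the haem transporter Slc48a1 at 0.93 ± 0.27 (adjusted p = 0.0875). Among 4 measured iron chaperones and ferritin turnover genes (median 0.07), Ncoa4, the receptor for ferritin degradation, had -0.55 ± 0.27 (adjusted p = 0.355) and the iron chaperone Pcbp1 0.14 ± 0.22 (adjusted p = 0.827). A short list of messages with an iron-responsive hairpin, not a full one, had 2 measured genes. They were Epas1, the hypoxia factor HIF-2 alpha, at 0.67 ± 0.27 (adjusted p = 0.226) and Cdc14a, a phosphatase, at 0.11 ± 0.35 (adjusted p = 0.924). Among 8 genes around the factors Nrf2 and Bach1, which act on Hmox1 and the ferritin genes, the median was 0.14. Bach1 had -0.41 ± 0.14 (adjusted p = 0.158) and the Nrf2 target Nqo1 0.25 ± 0.17 (adjusted p = 0.538). Nqo1 was near the floor, above the 40th percentile on only 5 arrays.

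**Figure D3:**
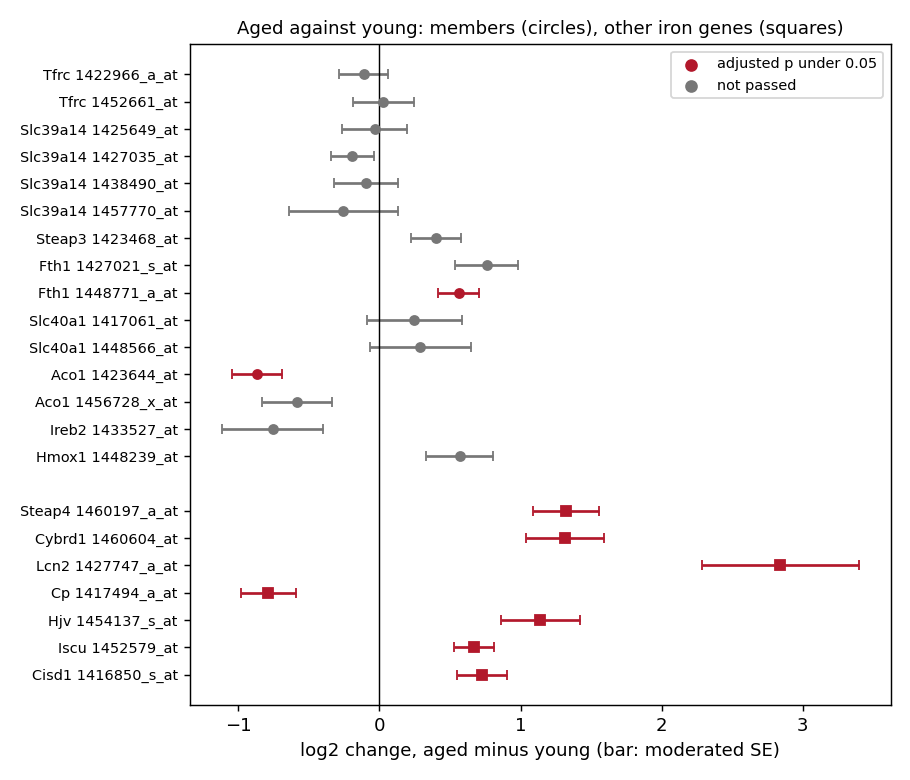
Log2 change in aged minus young cells (horizontal axis) with limma's moderated standard error for the 15 tested probe sets (circles) and the 7 other iron genes that passed (squares). Red marks an adjusted p under 0.05; among the members only Fth1 1448771_a_at at 0.56 and Aco1 1423644_at at -0.87 are red, and the largest change is that of Lcn2 at 2.84.

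**Figure D4:**
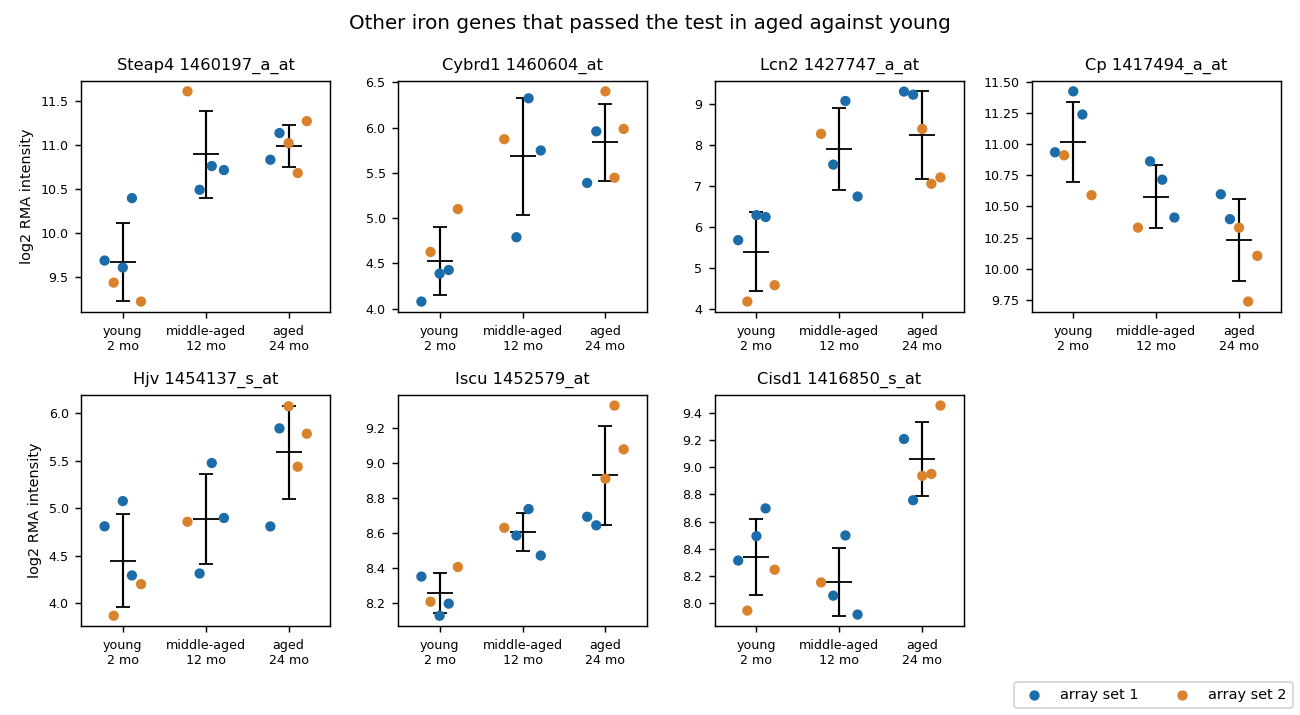
Log2 RMA intensity (vertical axes, separate scales) of the 7 other iron genes that passed in aged against young cells, on 14 arrays at 2, 12 and 24 months. Points are arrays, coloured by array set, and bars are the mean and SD. Every aged array is above every young one for Steap4, Cybrd1, Lcn2, Iscu and Cisd1 (so for 2.82% of all probe sets), while Cp falls from 11.02 to 10.23.

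Markers of other cells moved with age beside these changes, as did RNA quality. The summed intensity of 6 tenocyte markers was 3588 to 10866 on young, 30301 to 54036 on middle-aged and 26310 to 51924 on aged arrays, and 5 of the 6 rose in aged against young cells. The 7 mature myofibre markers summed to 812 to 2059, 1487 to 3001 and 2754 to 7349, and all 7 rose. The 6 fibro-adipogenic markers summed to 13905 to 20007, 20360 to 27088 and 15244 to 26202, and 1 of them rose. For 5 measured macrophage and myeloid markers the sums were 191 to 301, 265 to 464 and 341 to 909, and 1, Cd14, rose 2.52-fold. Ptprc (CD45) and Cd163, the scavenger receptor for haemoglobin, were below the 40th percentile on all arrays. Csf1r, Lyz2 and Cd14 were above it on all 14. The 5 measured endothelial markers summed to 345 to 494, 220 to 320 and 174 to 725. Pecam1 was below the 40th percentile on all arrays, whereas Kdr, Tek, Cldn5 and Egfl7 were above it on all 14. The 3 measured erythroid markers summed to 51.8 to 70.4, 48.0 to 60.6 and 42.1 to 82.5. Hba-a1 was below that level on all arrays and Klf1 above it on all 14. The 9 satellite cell and myogenic markers summed to 7648 to 8440, 5416 to 7718 and 4980 to 8028. All 9 had a lower mean in aged than in young cells (median log2 change -0.50, beside -0.05 over all probe sets), and 1 of them fell in limma. Beside these marker counts, of the brightest probe sets of all 13579 measured genes 2.76% rose and 0.987% fell. Pax7 and Myod1 were above the 40th percentile on all 14 arrays. So were the tenocyte marker Tnmd and the myofibre marker Myl1, so that level does not tell these cell types apart. The part of the other cell types in the iron gene changes was not tested.

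Between the 2 array sets at equal age, set 2 minus set 1 was 0.90 for Ireb2, 0.82 for Slc40a1 1417061_at, 0.47 for Tfrc 1452661_at and 0.46 for Aco1 1456728_x_at. It was -0.41, -0.47, -0.36 and -0.35 for Slc11a2 1417584_at, 1426441_at, 1441709_at and 1452078_a_at, -0.39 for Hmox1 and -0.02 for Aco1 1423644_at. The sets came from the same values, so these differences are a description. With the set as a term, Ireb2 had a change of -0.94 in aged against young cells and passed (adjusted p = 0.0431), which is no independent support.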

How the data were processed

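Sorted muscle precursor RNA was measured on 14 arrays. The deposited values are linear intensities, made by the authors with RMA per the submitters' processing notes (background correction, normalization across arrays, 1 value per probe set); neither its version nor a genome build is given in the sources used here. Their log2 was taken with no further normalization (array medians 19.0 to 21.2). Symbols came from the platform annotation. Of 45101 probe sets, 34945 had 1 symbol and were no control, 932 had several, 9160 none, and 64 were controls. Those with 1 symbol above the 40th percentile (log2 3.79 to 3.96) on at least 4 arrays, 23887, entered limma 3.58.1 (R 4.3.3), with age group as the only factor, all arrays in 1 fit, two-sided moderated tests and p-values adjusted by Benjamini-Hochberg over every one, called under 0.05. The fit was also run on simulated data with independent noise for each probe set. That noise held no array sets and no RNA quality differences, so the run does not bear on their effect. Errors of changes are moderated SE, errors of means SD. Arrays have no counting depth, and their number limits precision. Other iron genes and markers came from fixed lists, a gene taking its brightest kept probe set. Named were all members, up to 4 called genes per iron list by smallest p, or else the 2 with the smallest p. The members and lists were chosen with earlier results of these data known. Alternatives changed the dim filter, the probe set rule, the normalization, an offset, array weights, the variance prior, an RNA quality covariate, the array sets, a replicate block, the groups fitted and single arrays. Replicate numbers did not pair the arrays: correlations of age-centred values between same-numbered arrays ran from -0.469 to 0.31.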

Additional observations from a re-analysis of the deposited data

Results flagged for a closer look

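In 6 of 57 groups of a measured probe set, 1 array lay far from the others of its age (Dixon's criterion, by which chance flags about 1 group in 20). For Fth1 1427021_s_at, aged array 4 read 12.54 against 11.82 for the next, and middle-aged array 2 read 11.24 against 11.89. For Slc40a1 1448566_at, aged array 4 read 5.91 against 3.88. For Slc11a2, aged array 5 read 5.56 on 1417584_at against 6.36, and aged array 1 read 6.31 on 1441709_at against 5.15. For Slc39a14 1427035_at, young array 1 read 11.34 against 11.79.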

How the results depend on the processing

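In aged against young cells the count of called iron handling probe sets, 2 in the report, was 1 with the filter at the 60th percentile, 1 probe set per gene, median centring, array weights, the RNA quality covariate, the replicate block, only the 2 groups fitted or within array set 2, and 0 within array set 1. With the array set as a term, both of the 2 were called and so was Ireb2. With single arrays left out the count of called iron handling probe sets ran from 1 to 2. The median middle-aged minus young change of these probe sets, a description (0.11), ran from -0.09 (within set 2, with 1 middle-aged array) to 0.24. The count of other iron genes called, 7 in the report, was 4 with the covariate (3 of them among the 7), 3 within set 1 (2 among the 7), 3 within set 2 (all among the 7) and 4 to 7 with arrays left out. It was 5 with the replicate block or only the 2 groups fitted. The offset gave 8 and the array set as a term gave 10, each with all of the 7. Called probe sets over the whole array ran from 309 to 1352 in aged against young cells (740 in the report). In aged against middle-aged cells they ran from 0 to 2 (0 in the report), and the 2 came from set 2, which holds 1 middle-aged array that is assumed to vary like the other groups. Of 24 alternatives, Steap4 and Lcn2 were called in 24, Cybrd1 in 21, Iscu in 19, Hjv and Cisd1 in 12, Cp in 10 and Fth1 1448771_a_at in 7, and Aco1 1423644_at was called in 21 of 23. Quantile normalization ended the calls of Cp and Cisd1 (adjusted p = 0.0540 and 0.0650). The replicate block, for numbers that do not pair the arrays, gave adjusted p of 0.115 for Fth1 and 0.0275 for Aco1, and ended the calls of Cp, Iscu and Cisd1 (0.0607, 0.0531 and 0.0629). Aco1 1456728_x_at passed within set 2 (-1.23, adjusted p = 0.0169) and not within set 1 (-0.20, adjusted p = 0.693). Fth1 1427021_s_at passed without young array 3 (0.90, adjusted p = 0.0483).

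Small changes turned sign, none of them called. Slc11a2 1417584_at (-0.04) and 1441709_at (-0.12), which are described only, were 0.11 and 0.23 in aged against young cells with the covariate. With arrays left out they ran from -0.12 to 0.15 and from -0.38 to 0.0126. In aged against young cells Tfrc 1452661_at (0.03) was -0.0027 with quantile normalization, -0.38 with the covariate, -0.0665 with the set as a term, -0.11 within set 1 and -0.11 to 0.15 with arrays left out. Slc40a1 1417061_at and 1448566_at were -0.41 and -0.22 with the covariate and -0.46 and -0.29 within set 1. Within set 2 they were 0.54 and 0.65. With arrays left out 1448566_at ran from -0.15 to 0.47. Slc39a14 1457770_at was 0.24 with the covariate, 0.61 within set 1 and -0.88 within set 2. Within set 1, 1425649_at was 0.0426 and 1438490_at 0.12, and within set 2 the latter was -0.38. With arrays left out 1425649_at and 1438490_at ran from -0.24 to 0.0885 and from -0.18 to 0.0306. Aged minus middle-aged for 1457770_at was 0.0496 within set 1. The causes were not tested.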
